A study of Mus musculus with 12 samples.

Results

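Satellite cells are the resident stem cells of skeletal muscle, and 10 genes that mark them or carry Notch signaling in them were followed in a mouse model of facioscapulohumeral muscular dystrophy (FSHD), a disease caused by DUX4 expression in muscle. The 10 genes were found by symbol among the 37748 genes of the deposited table. They are the satellite cell genes Pax7, Calcr, Vcam1 and Sdc4, the Notch ligand Dll1, the receptors Notch1 and Notch3, and the Notch effectors Hes1, Hey1 and Heyl. All 10 had 1 row each, and all passed the filter on low counts that left 16679 genes for testing.

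Gastrocnemius muscle of 12 mice was sequenced as poly(A) RNA, 1 library per mouse, at 13 weeks of age. The 3 control mice carried ACTA1-MCM/+, a transgene that makes a tamoxifen-inducible Cre recombinase (MerCreMer) in skeletal muscle fibers. The 3 FLExD/+ mice carried only the DUX4-fl transgene, which lies backwards to its promoter until Cre turns it around. Without Cre the study still describes low, leaky DUX4-fl expression in this line. Both groups are labelled as without tamoxifen (TMX), although the study's own overview of its models describes ACTA1-MCM/+ controls injected with TMX. The 3 moderate and the 3 severe mice carried both transgenes and were given TMX. The moderate model had 1 injection of 5 mg/kg, the severe model 2 of 10 mg/kg, and muscle was collected on day 9. The submitters' description of the FLExD/+ mice mentions a mild pathology, while the strain and treatment entries list neither Cre nor TMX, and the groups follow those entries. No control mouse carried both transgenes and, as labelled, none received TMX, so the effects of carrying both, of TMX and of DUX4-fl cannot be told apart. The Cre is made in myofibers and recombination is mosaic, so whole muscle mixes fibers with and without DUX4-fl with all other cells. Xist was at 128 CPM or more in every library and Ddx3y at 0.0225 CPM or less, so all 12 libraries look female.

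A quiescent satellite cell expresses the transcription factor Pax7 and rests between the fiber and its basal lamina. Notch signaling is known to hold it there. A Delta or Jagged ligand on a neighbouring cell binds a Notch receptor, proteases release the receptor's intracellular part, and this joins RBPJ in the nucleus to switch on the repressors of the Hes and Hey families. Calcitonin receptor is a marker of quiescent satellite cells and is lost when they activate, whereas Dll1 is known from activated and committed myogenic cells. Blood vessels are rich in the same pathway: endothelial cells use Notch1 and Hey1, and mural cells use Notch3 and Heyl.

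Promoter windows from RefSeq (GRCm38.p6), each of 300 bases that lie mostly upstream of a transcript start and run a little past it, were held for 6 of the 10 genes. They are shown for Pax7, the marker that the other genes are set against, and for the 3 windows, of Notch3 and Dll1, that contain the HES/HEY site letters CACGNG on either strand. Capitals mark that site. All 4 are read 5′ to 3′ on the minus strand, Pax7 at chr4:139832919-139833218, Notch3 at chr17:32166841-32167140, and Dll1 at chr17:15375774-15376073 for window 1 and chr17:15376883-15377182 for window 2.
Pax7: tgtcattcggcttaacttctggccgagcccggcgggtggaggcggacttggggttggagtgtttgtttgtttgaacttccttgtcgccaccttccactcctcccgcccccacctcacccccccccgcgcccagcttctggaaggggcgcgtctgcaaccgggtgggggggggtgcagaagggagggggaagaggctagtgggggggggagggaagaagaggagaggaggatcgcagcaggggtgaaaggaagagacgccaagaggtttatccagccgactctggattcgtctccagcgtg
Notch3: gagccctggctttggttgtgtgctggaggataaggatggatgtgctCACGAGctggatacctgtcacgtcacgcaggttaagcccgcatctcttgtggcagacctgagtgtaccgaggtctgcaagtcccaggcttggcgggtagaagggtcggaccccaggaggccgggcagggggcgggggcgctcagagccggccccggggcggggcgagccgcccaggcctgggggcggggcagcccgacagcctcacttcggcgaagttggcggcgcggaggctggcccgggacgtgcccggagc
Dll1 window 1: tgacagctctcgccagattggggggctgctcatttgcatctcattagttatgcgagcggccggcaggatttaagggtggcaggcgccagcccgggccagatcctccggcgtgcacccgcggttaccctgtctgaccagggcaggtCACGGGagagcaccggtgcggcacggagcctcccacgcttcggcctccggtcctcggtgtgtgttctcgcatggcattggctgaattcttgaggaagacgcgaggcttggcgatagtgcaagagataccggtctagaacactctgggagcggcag
Dll1 window 2: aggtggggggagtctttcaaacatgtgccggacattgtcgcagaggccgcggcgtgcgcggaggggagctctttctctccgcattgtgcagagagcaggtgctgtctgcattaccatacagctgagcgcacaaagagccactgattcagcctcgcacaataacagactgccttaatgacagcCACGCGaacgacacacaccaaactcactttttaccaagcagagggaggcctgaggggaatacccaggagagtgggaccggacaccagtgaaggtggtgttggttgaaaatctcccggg
The site began at position -204 from the start in Notch3, at -105 in Dll1 window 1 and at -68 in Dll1 window 2. The same letters occur in 27.5% of the 32851 windows of all genes. The RBPJ core letters GTGGGAA, on either strand, were in none of the 8 windows of the 6 genes, against 6.38% of all windows. These matches describe the letters in the windows and nothing more.

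Levels are given as CPM, counts relative to the library's total after scaling with TMM factors. A difference was called where the adjusted p (edgeR's quasi-likelihood test, Benjamini-Hochberg over 16679 genes) was under 0.05 and the log2 fold change reached 0.5 in either direction. Libraries held 23796902 to 29136403 counts, so 3 counts correspond to 0.0676 to 0.155 CPM, a floor that covers counting error only. The 20 most abundant genes of control muscle took 57.7% to 58.5% of the counts in control libraries and 30.4% to 33.2% in severe libraries. TMM takes the bulk of genes as its reference. Under library size alone the median gene moved by 0.65 on the log2 scale in the moderate model and by 1.38 in the severe model, so every CPM and fold change below is relative to the bulk of genes. In bulk muscle, more cells of a type and more RNA per cell cannot be told apart.

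In muscle with an unrecombined DUX4-fl transgene the 10 genes could not be told from control. None of the 10 was called between FLExD/+ and control mice with edgeR, DESeq2 or limma, and none had an unadjusted p under 0.05. Of all genes, 0.0% were called higher and 0.006% lower, and 638 had an unadjusted p under 0.05. The 3 mice of one group overlapped the 3 of the other for all 10 genes. The largest log2 fold change was 0.51 (SE 0.26), for Hey1, and the median of the 10 was 0.01. Hey1 thus reached the fold threshold without being called. With 3 mice a group the SE went up to 0.39, for Calcr, which leaves room for changes in either direction.

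In the moderate model 3 of the 10 genes rose, Pax7, Vcam1 and Dll1, each to between 2.23 and 3.03 times control. The count was 9 under library size alone, 6 under library size without the 20 most abundant genes, 5 on log2(TPM + 1) and 8 on log2(TPM + 0.1), scalings that lift the median gene as well. No gene fell, with edgeR, DESeq2 or limma, and none had a negative change with an unadjusted p under 0.05. Of all genes, 24.4% were called higher and 17.0% lower. Every moderate mouse was above every control mouse for 5 of the 10, Notch1 and Heyl being the other two, against 32.6% of all genes. The median log2 fold change of the 10 was 0.37 and that of all genes 0.04.

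In the severe model 8 of the 10 rose and 1, Hes1, was called lower, while Calcr was not called. The higher calls were 10 under library size alone and on log2(TPM + 0.1), and 9 on log2(TPM + 1), with 0 lower. Of all genes, 32.9% were called higher and 27.9% lower. Every severe mouse was above every control mouse for the 8 that rose, against 40.0% of all genes. The median log2 fold change of the 10 was 1.07, against 0.08 for all genes. Between the models, 7 of the 10 were higher in severe muscle and none was lower with edgeR, DESeq2 or limma or at an unadjusted p under 0.05, where 17.6% of all genes were called higher and 18.8% lower. All severe mice were above all moderate mice for 8 of the 10, Sdc4 added to the 7, against 30.5% of all genes. The 2 comparisons with control share the same 3 control mice.

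**Figure D1:**
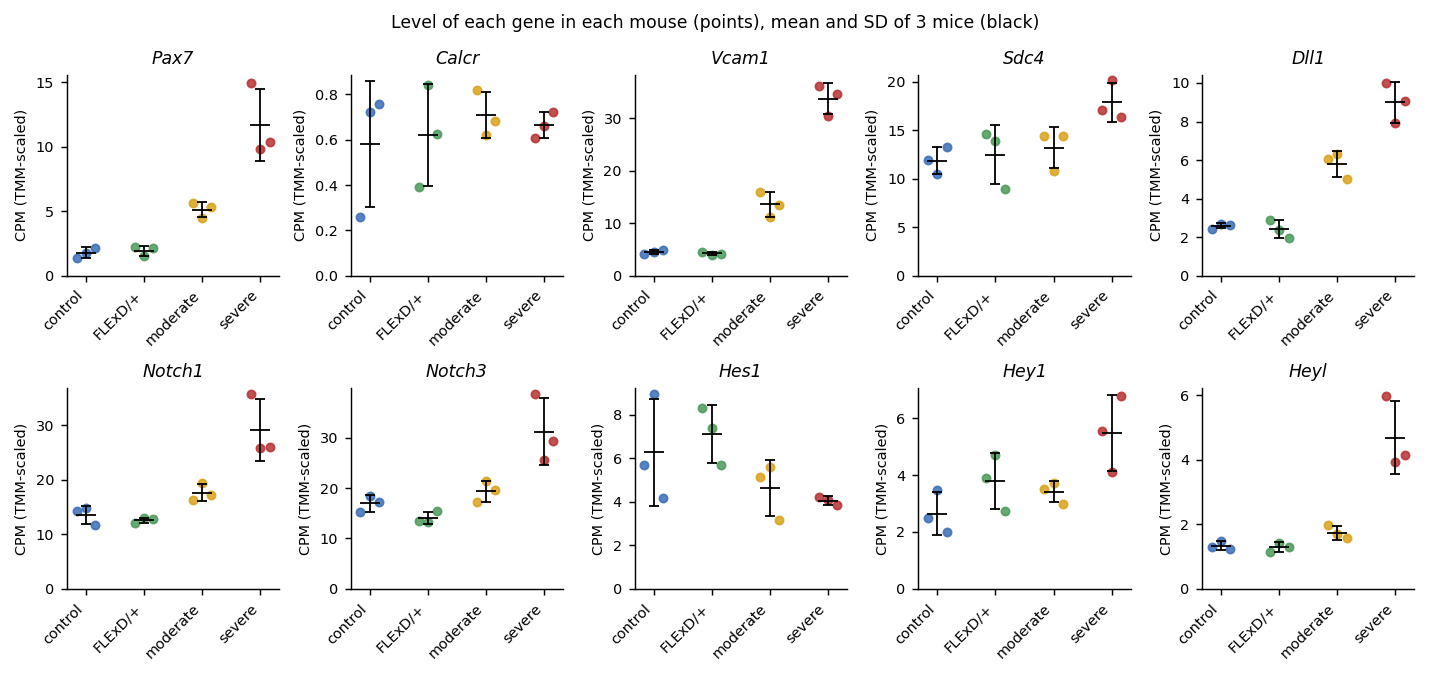
Level of the 10 genes in each of the 12 mice, in CPM on TMM-scaled library sizes (vertical axes from 0, 1 panel per gene), with points for mice and black bars for the mean and SD of 3 mice. Pax7, Vcam1 and Dll1 climb from control through moderate to severe with no overlap, Heyl, Notch1, Notch3 and Hey1 stand highest in severe muscle, and Calcr stays between 0.259 and 0.842 CPM throughout.

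Pax7 (ENSMUSG00000028736, chr4:139737062-139833528) is the transcription factor that defines satellite cells. It stood at 1.35, 1.78 and 2.18 CPM in the control mice and at 1.49, 2.12 and 2.21 CPM in the FLExD/+ mice. The moderate mice had 4.45, 5.32 and 5.61 CPM and the severe mice 9.78, 10.3 and 14.9 CPM. The 3 levels, of control, moderate and severe muscle, did not overlap. The rise was 2.88-fold in the moderate model (log2 1.53, SE 0.22, adjusted p = 5.5e-05, edgeR) and 6.56-fold in the severe model (log2 2.71, SE 0.22, adjusted p = 5.4e-08).

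Vcam1 (ENSMUSG00000027962, chr3:116109949-116129688), an adhesion molecule on satellite cells and also on activated endothelium, changed most like Pax7 among the 10. Control mice had 4.04, 4.48 and 4.93 CPM and FLExD/+ mice 4.01, 4.14 and 4.57 CPM. The level was 11.3, 13.6 and 16.0 CPM in moderate and 30.5, 34.6 and 36.2 CPM in severe muscle, again without overlap. Vcam1 rose 3.03-fold in the moderate (log2 1.60, SE 0.14) and 7.52-fold in the severe model (log2 2.91, SE 0.14, adjusted p = 3.3e-10, edgeR), the largest change of the 10 in both comparisons. From moderate to severe it rose a further 2.48-fold (SE 0.12 on the log2 scale).

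Calcr (ENSMUSG00000023964, chr6:3685680-3764714) encodes the calcitonin receptor of quiescent satellite cells. It was the lowest of the 10 in CPM, at 0.259, 0.722 and 0.758 CPM in control and 0.608, 0.660 and 0.724 CPM in severe muscle. The FLExD/+ mice had 0.393, 0.626 and 0.842 CPM and the moderate mice 0.620, 0.685 and 0.820 CPM, so all groups overlapped. These levels rest on 5 to 16 counts in the control and 27 to 30 counts in the severe libraries. The log2 fold change was 0.28 (SE 0.36, adjusted p = 0.553, edgeR) in moderate and 0.18 (SE 0.36, adjusted p = 0.665) in severe muscle, errors that leave room for a change in either direction. Under library size alone Calcr was called higher in both models, at log2 0.88 and 1.47.

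Sdc4 (ENSMUSG00000017009, chr2:164424247-164443887), a heparan sulfate proteoglycan of the satellite cell surface that many other cells also make, changed little on TMM-scaled libraries. It was at 10.4, 11.9 and 13.3 CPM in control, 8.96, 13.9 and 14.7 CPM in FLExD/+, 10.8, 14.4 and 14.4 CPM in moderate and 16.3, 17.1 and 20.2 CPM in severe mice. Only the severe mice lay above all controls, 1.51-fold higher on average (log2 0.59, SE 0.17, adjusted p = 0.007, edgeR). The step from moderate to severe, log2 0.44, was under the fold threshold at an adjusted p of 0.043 (edgeR). Without control mouse 1246 the severe change was log2 0.49, and without severe mouse 1066 log2 0.496, and the call was lost each time. Under library size alone the severe change was log2 1.89 and the step from moderate to severe log2 1.13. On log2(TPM + 1) they were 1.73 and 1.13.

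Dll1 (ENSMUSG00000014773, chr17:15367354-15376872), the Delta-like ligand with the 2 promoter windows shown, rose in both models. Control mice had 2.43, 2.65 and 2.70 CPM and FLExD/+ mice 1.98, 2.38 and 2.90 CPM. Moderate mice had 5.02, 6.05 and 6.31 CPM and severe mice 7.92, 9.05 and 10.0 CPM, with no overlap between control, moderate and severe. The change was 2.23-fold in the moderate (log2 1.16, SE 0.16, adjusted p = 3.5e-05, edgeR) and 3.46-fold in the severe model (log2 1.79, SE 0.16, adjusted p = 1.4e-07). Of its exonic bases, 20.5% are shared with the opposite-strand lincRNA A930024N18Rik, which held 559 counts over all 12 libraries, and without strand the reads of the 2 cannot be told apart.

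The receptors rose in severe muscle and by less. Notch1 (ENSMUSG00000026923, chr2:26457903-26516663) was at 11.7, 14.2 and 14.8 CPM in control, 12.05, 12.8 and 12.9 CPM in FLExD/+, 16.3, 17.3 and 19.4 CPM in moderate and 25.8, 26.0 and 35.6 CPM in severe mice. All moderate mice were above all controls, but the change of log2 0.38 (SE 0.13, adjusted p = 0.027, edgeR) was under the fold threshold, and the severe change was log2 1.10 (SE 0.13, adjusted p = 3.6e-06). Notch3 (ENSMUSG00000038146, chr17:32120820-32166852), the receptor of mural cells and of a part of the satellite cells, was at 15.2, 17.3 and 18.4 CPM in control, 13.2, 13.5 and 15.5 CPM in FLExD/+, 17.2, 19.5 and 21.4 CPM in moderate and 25.6, 29.4 and 38.6 CPM in severe mice. Moderate mice overlapped controls (log2 0.19, SE 0.14, adjusted p = 0.276, edgeR) and severe mice did not (log2 0.88, SE 0.14, adjusted p = 6.0e-05). From moderate to severe, Notch1 rose by log2 0.72 and Notch3 by log2 0.69. Opposite-strand genes share 7.50% of the exonic bases of Notch1 (0610009E02Rik) and 6.03% of those of Notch3 (Gm17276).

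The 3 effectors went different ways. Heyl (ENSMUSG00000032744, chr4:123233556-123249875), a Hey-family repressor that keeps satellite cells undifferentiated and is also made in mural cells, was at 1.23, 1.29 and 1.49 CPM in control, 1.13, 1.30 and 1.44 CPM in FLExD/+ and 1.57, 1.69 and 1.99 CPM in moderate mice. It then stood at 3.94, 4.15 and 5.99 CPM in severe mice. Most of its change therefore lay between the models, log2 1.42 (SE 0.19, adjusted p = 4.2e-05, edgeR), where it had the largest change of the 10, against log2 0.38 (SE 0.22, adjusted p = 0.166) from control to moderate.

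Hey1 (ENSMUSG00000040289, chr3:8663359-8667256), its relative in satellite and endothelial cells, was at 1.99, 2.49 and 3.47 CPM in control and 3.00, 3.50 and 3.72 CPM in moderate mice. Severe mice had 4.10, 5.54 and 6.78 CPM, all above every control and moderate mouse, but FLExD/+ mice at 2.75, 3.88 and 4.71 CPM reached into the severe range. The severe change was log2 1.05 (SE 0.24, adjusted p = 0.0014, edgeR). The step between the models, log2 0.68 (adjusted p = 0.022, edgeR), was 0.50 without severe mouse 1079. The call was lost there and also without severe mouse 1047 or moderate mouse 1236 or 1331, where the change was log2 0.68, 0.70 and 0.62.

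Hes1 (ENSMUSG00000022528, chr16:30064384-30067796), a Notch-induced repressor that many cell types make and many signals induce, did not rise. It was at 4.17, 5.70 and 8.96 CPM in control, 5.69, 7.38 and 8.31 CPM in FLExD/+, 3.16, 5.14 and 5.62 CPM in moderate and 3.84, 4.10 and 4.24 CPM in severe mice. The control mice were the most spread and reached down into the severe range. Hes1 was called lower in severe muscle by log2 -0.63 (SE 0.26, adjusted p = 0.043, edgeR), a direction that turned to log2 0.68 under library size alone and to 0.55 on log2(TPM + 1). The call was lost without any 1 severe mouse or without control mouse 1127 or 1246, the last of which left log2 -0.29, and without control mouse 1349 Hes1 was also called lower in moderate muscle, at log2 -0.69.

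**Figure D2:**
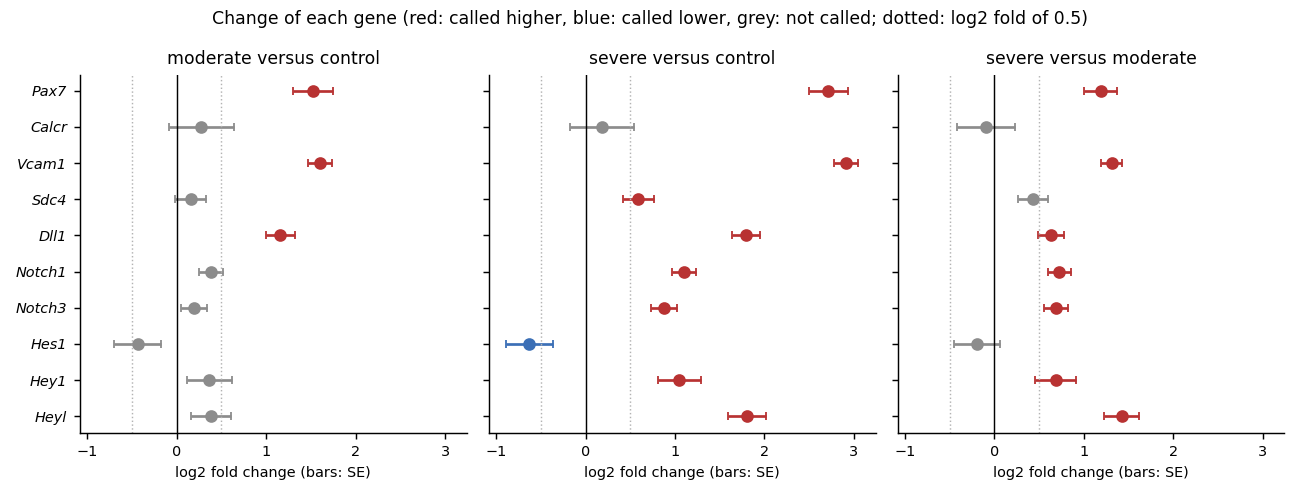
Log2 fold changes of the 10 genes (horizontal axis, bars for the SE) in 3 comparisons, with red for called higher, blue for called lower and grey for not called, and dotted lines at a log2 fold change of 0.5 in either direction. Pax7, Vcam1 and Dll1 are red in all 3 panels, Heyl is red in both severe panels at 1.81 and 1.42, and Hes1 is the only blue point, in severe versus control, where library size alone turns its sign.

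Dividing each gene's counts by those of Pax7 in the same library removes the scaling between libraries. Of the 9 ratios only that of Vcam1 overlapped control in severe libraries. Its log2 ratio was 1.17 to 1.57 in control, 1.34 to 1.50 in moderate and 1.28 to 1.74 in severe libraries, all overlapping, and the severe minus control difference was 0.20 (exact permutation p = 0.30, two-sided). This holds for counts. On log2(TPM + 0.1) Vcam1 rose by more than Pax7, by 1.98 against 1.27 in moderate and 3.98 against 3.13 in severe muscle. The ratio of Calcr to Pax7 was 0.19 times that of control in severe libraries, a log2 difference of -2.41, with control log2 ratios of -2.27 to -1.27, moderate of -2.93 to -2.75 and severe of -4.59 to -3.81. The 3 groups did not overlap. Calcr was not called in either model while Pax7 rose in both, so the ratio fell in each and most in the severe.

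The other 7 genes also had lower ratios to Pax7 in every severe than in every control library. Their log2 differences were -3.26 for Hes1, -2.12 for Sdc4, -1.85 for Notch3, -1.66 for Hey1, -1.61 for Notch1, -0.94 for Heyl and -0.92 for Dll1. In the moderate model Dll1 was the exception, with a difference of -0.39, groups that overlapped, and a sign that turned to 0.19 in the ratio of TPM. Heyl was lower against Pax7 in moderate libraries by -1.17 and in severe by -0.94. With 3 libraries against 3 the smallest two-sided p of the exact permutation test is 0.10, which all 8 severe differences without overlap reached, 0.164 after Benjamini-Hochberg adjustment over 36 tests. Pax7 is shared by all these ratios, so they are not independent of each other. In severe muscle Pax7 rose by log2 2.71, against a median of 0.08 for all genes. Any gene that rose less than Pax7 therefore has a lower ratio, also where it rose itself, as Heyl and Dll1 did. The share of all genes with a lower ratio to Pax7 was not computed.

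**Figure D3:**
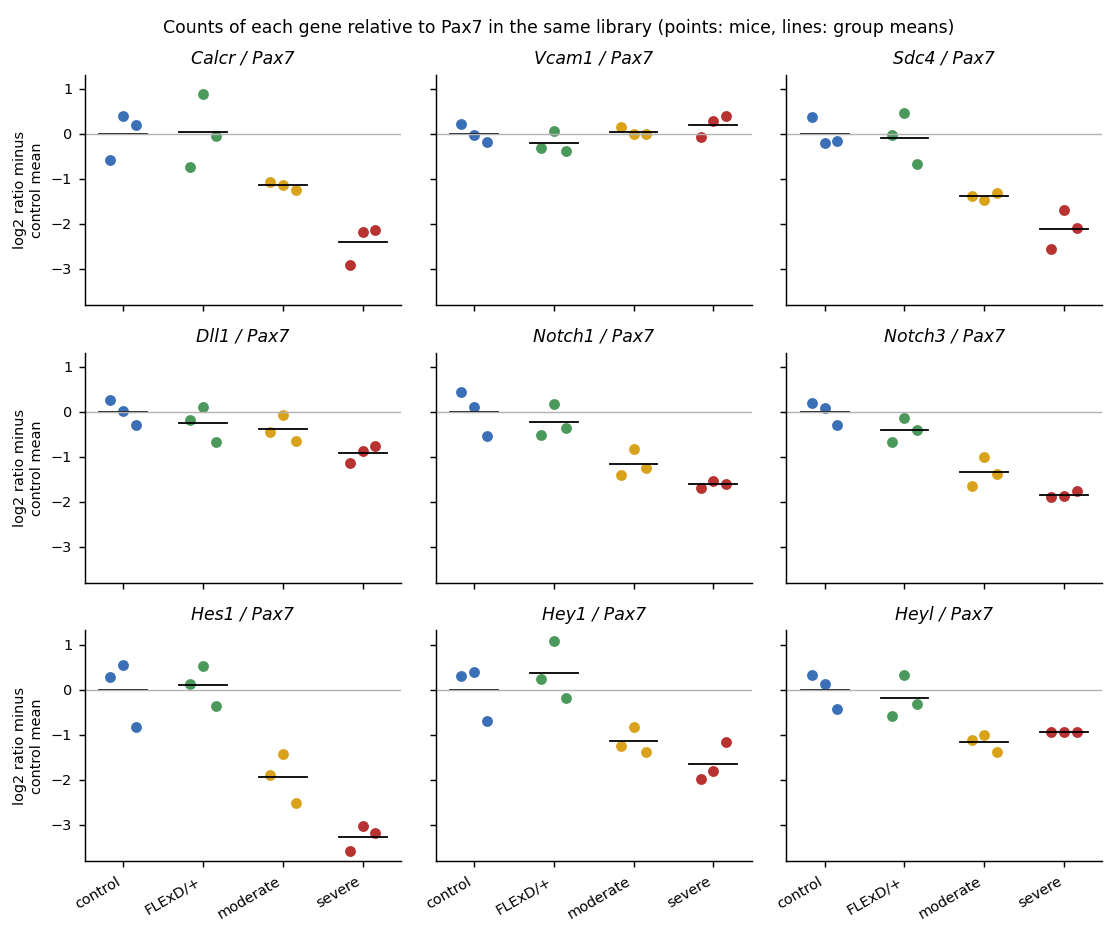
Log2 ratio of each of the other 9 genes to Pax7 in the same library, minus the mean of the control libraries (vertical axis), by group, with points for mice and lines for group means. In these ratios of counts Vcam1 stays near 0 in all groups and Dll1 overlaps control in moderate muscle. Hes1, Calcr and Sdc4 lie lowest in severe muscle, with means of -3.26, -2.41 and -2.12.

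Per transcript length (TPM, as the authors deposited it), the order of the levels also changed. Sdc4 was highest in every group, at a mean of 14.5 TPM in control and 50.5 TPM in severe muscle, and Calcr was lowest in every group, at 0.433 and 0.727 TPM. Pax7 was ninth in every group, at 0.533 TPM in control and 5.51 TPM in severe muscle. Vcam1 moved from 4th to 2nd place, with 1.79 TPM in control and 29.5 TPM in severe muscle, and Hes1 from 2nd to 7th, with 5.01 and 7.55 TPM. In severe muscle Notch3, Heyl, Dll1, Notch1 and Hes1 were all between 7.55 and 8.50 TPM, with ranges over the 3 mice that overlapped between neighbours. TPM is not scaled for the loss of muscle RNA, and the deposited TPM is above 0 at nearly all zero counts, so small values are overstated.

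The 3 severe mice were not equal. Mouse 1047 was highest for 7 of the 10 genes and had 1.52 times the Pax7 of the lowest severe mouse, 1066. The share of all genes highest in mouse 1047 was not computed, so the 7 are not shown to be particular to these genes. Its TMM factor was 1.87, against 1.75 and 1.69. Mouse 1047 also had the lowest summed CPM of 8 myofiber markers, 8828 against 15123 and 15654, and the highest of 9 macrophage markers, 1319 against 1179 and 1218. Without mouse 1047 all 8 genes that rose in the severe model were still called. Their part in the differences between the severe mice was not tested.

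Of 23 other satellite cell genes, 21 could be tested, and 13 were called higher and 2 lower in moderate muscle, 15 and 2 in severe muscle. The shares of all genes were 24.4% higher and 17.0% lower in moderate, and 32.9% and 27.9% in severe muscle. Under library size alone all 21 were called higher in severe muscle, around a median gene at 1.38. Pax3 and Chrdl2 did not pass the filter on low counts. The median log2 fold change of the list was 0.81 and 1.26, against 0.04 and 0.08 for all genes. Between the models 10 were higher and 1 lower in severe muscle, against 17.6% and 18.8% of all genes. Cdh15, the M-cadherin that joins satellite cell and fiber, rose by log2 1.96 (SE 0.13) and 2.49 (SE 0.13), and Myf5, the first myogenic factor of satellite cells, by 1.68 (SE 0.21) and 2.56 (SE 0.20). Met, the hepatocyte growth factor receptor that takes part in activation, rose by 0.53 and 0.77. The abundant adhesion gene Itgb1 rose by 0.81 and 0.78 and Col5a1, a collagen chain that fibroblasts also make, by 1.47 and 2.16.

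Of the genes on the list that were named for their link to quiescence, some rose and others did not. Gas1, a growth arrest gene, went from 20.5 ± 1.47 CPM (SD, n = 3) in control to 48.8 ± 6.78 CPM in severe muscle and was called higher in both models. Spry1, an inhibitor of growth factor signaling known for returning satellite cells to rest, was at log2 -0.40 in moderate and -0.09 in severe muscle, not called in either. The lower calls, named after their values were seen, were Itga7 and the cell cycle inhibitor Cdkn1b in moderate and Cd34 and Cdkn1b in severe muscle. Itga7, an integrin that myofibers make as well, was at log2 -0.69 in moderate and 0.61 in severe muscle. Cd34, the surface marker shared with endothelial and fibro-adipogenic cells, was at -0.61 in the severe model (SE 0.12), which turned to 0.69 under library size alone, as Cdkn1b turned from -0.78 to 0.52. The other cell cycle inhibitor of that family on the list, Cdkn1c, rose by log2 0.92 and 2.83, and it and Gas1 too were named after their values were seen.

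Of 36 other Notch pathway genes, 32 could be tested, and the calls went in both directions, with 6 higher and 5 lower calls in moderate muscle, and 13 and 7 in severe muscle. Hes5, Hey2, Dll3 and Dtx1 did not pass the filter. These shares lie near those of all genes, 24.4% and 17.0% in moderate and 32.9% and 27.9% in severe muscle, so the split is no result about the pathway. The median log2 fold change was 0.03 and 0.16, also near that of all genes. From moderate to severe muscle 9 were called higher and 3 lower, against 17.6% and 18.8% of all genes. The median log2 fold change of that step was 0.17, against 0.02 for all genes. Under library size alone the severe calls were 26 higher and 1 lower, around a median gene at 1.38, so the split depends on the scaling.

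None of the 3 other ligands tested was called higher on TMM-scaled libraries. Dll4, the ligand of endothelial cells, was lower at log2 -1.35 (SE 0.26) in moderate and -2.34 (SE 0.27, adjusted p = 2.4e-06, edgeR) in severe muscle, and stayed negative under library size alone at -0.75 and -1.05. Jag1 was at 0.03 and 0.12 and not called. Jag2 was at -0.05 in moderate and called lower at -1.10 (SE 0.09) in severe muscle, which turned to 0.21 under library size alone.

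Of the other receptors, Notch2 was called higher in both models, by log2 0.61 (SE 0.16) and 1.22 (SE 0.16, adjusted p = 9.4e-06, edgeR). Rbpj, which encodes the DNA-binding partner of the released receptor, was at log2 0.13 in moderate and rose by 0.69 (SE 0.09) in severe muscle. Lfng, a glycosyltransferase that makes receptors more sensitive to Delta ligands, rose by 0.55 and 1.38, and its relative Mfng was at -0.40 and -0.34 and not called. Numb, the Notch antagonist shared out in dividing satellite cells, was at -0.02 and -0.20 and not called.

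Of the other effectors, Hes6 rose by log2 1.32 (SE 0.15) and 2.67 (SE 0.15, adjusted p = 1.5e-09, edgeR). Unlike the rest of its family it is known as an antagonist of Hes1 that promotes myogenic differentiation. Nrarp, a feedback inhibitor that Notch induces, was at -0.42 in moderate and called lower at -1.08 (SE 0.33, adjusted p = 0.0092, edgeR) in severe muscle, which turned to 0.21 under library size alone. The abundant ligand-side ubiquitin ligases Mib1 and Neurl1a were called lower in the moderate model at -0.76 and -0.89, and Neurl1a also in the severe at -1.56. Under library size alone these were -0.15, -0.28 and -0.26.

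**Figure D4:**
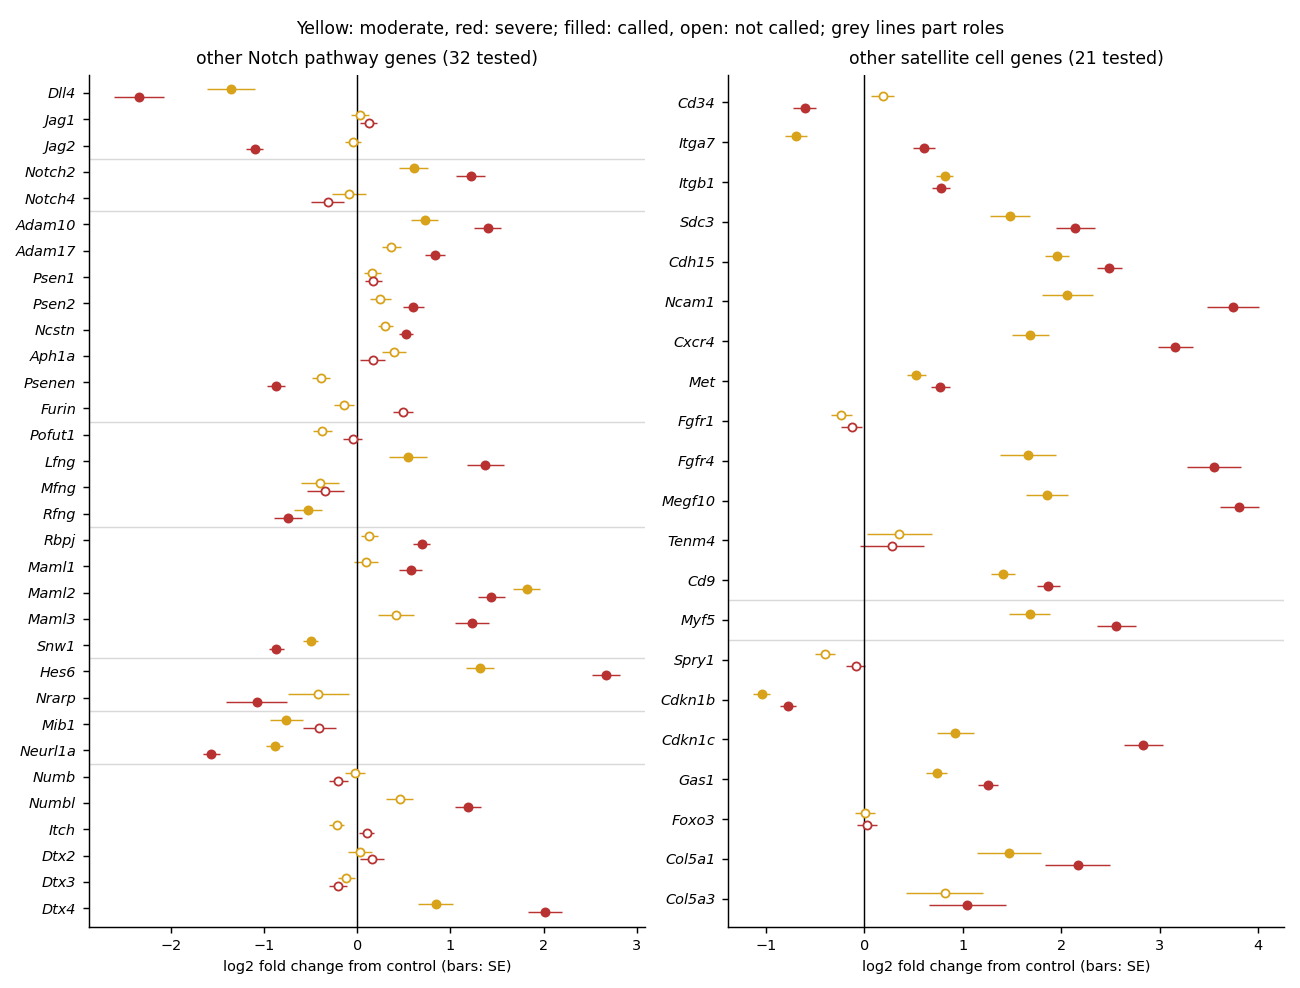
Log2 fold changes from control (horizontal axes, bars for the SE) of 32 other Notch pathway genes, left, and 21 other satellite cell genes, right, with yellow for moderate and red for severe, filled where called, and grey lines between roles. Notch pathway genes lie on both sides of 0, from Dll4 at -2.34 to Hes6 at 2.67 in severe muscle. There 15 of the 21 satellite cell genes are called higher, against 32.9% of all genes.

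Cells other than satellite cells express several of the 10 genes, so the summed CPM of their markers is set beside them. The 9 endothelial markers summed to 217 to 245 CPM in control and 105 to 120 CPM in severe libraries, with no higher call, 5 lower calls in moderate and 8 lower calls in severe muscle. Pecam1, the most abundant, was at log2 -0.60 in severe muscle, which turned to 0.69 under library size alone, where 3 of the 9 were called higher and 1 lower. The 9 mural cell markers summed to 557 to 585 CPM in control and 291 to 332 CPM in severe libraries, with 2 called higher and 3 lower in moderate and 2 and 5 in severe muscle (4 and 3 under library size alone). That sum rests on Abcc9, which went from 369 ± 29.8 CPM (SD, n = 3) in control to 84.1 ± 17.9 CPM in severe muscle. Without it the other 8 summed to 186 to 239 CPM in control and 201 to 267 CPM in severe libraries, which overlap. Among the 8, Rgs5 was at 61.0 and 15.4 CPM, Acta2 at 22.1 and 119 CPM and Pdgfrb at 26.3 and 36.1 CPM in control and severe muscle, so the mural cell markers did not move one way.

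The 9 macrophage markers were all called higher in both models, and summed to 96.8 to 119 CPM in control, 499 to 643 CPM in moderate and 1179 to 1319 CPM in severe libraries. The 6 fibro-adipogenic progenitor markers summed to 492 to 1042 CPM in control and 982 to 1566 CPM in severe libraries, which overlap, with 3 called higher and 0 lower in moderate and 2 and 1 in severe muscle, where library size alone gave 6 and 0. Its most abundant gene, Col1a1, was at 239 ± 270 CPM (SD, n = 3) in control and 802 ± 367 CPM in severe muscle. Dcn, the next, went the other way, from 325 to 188 CPM. The 5 Schwann cell markers overlapped in sum at 31.2 to 53.2 CPM in control and 33.0 to 42.3 CPM in severe libraries, with 0 higher and 1 lower in moderate and 0 and 4 in severe muscle, where library size alone gave 1 and 1. The 8 myofiber markers, of which 6 fell in moderate and all 8 in severe muscle, summed to 132856 to 178544 CPM in control and 8828 to 15654 CPM in severe libraries. No marker of these lists was at 0 in all libraries of a group, and their part in the changes of the 10 genes was not tested.

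**Figure D5:**
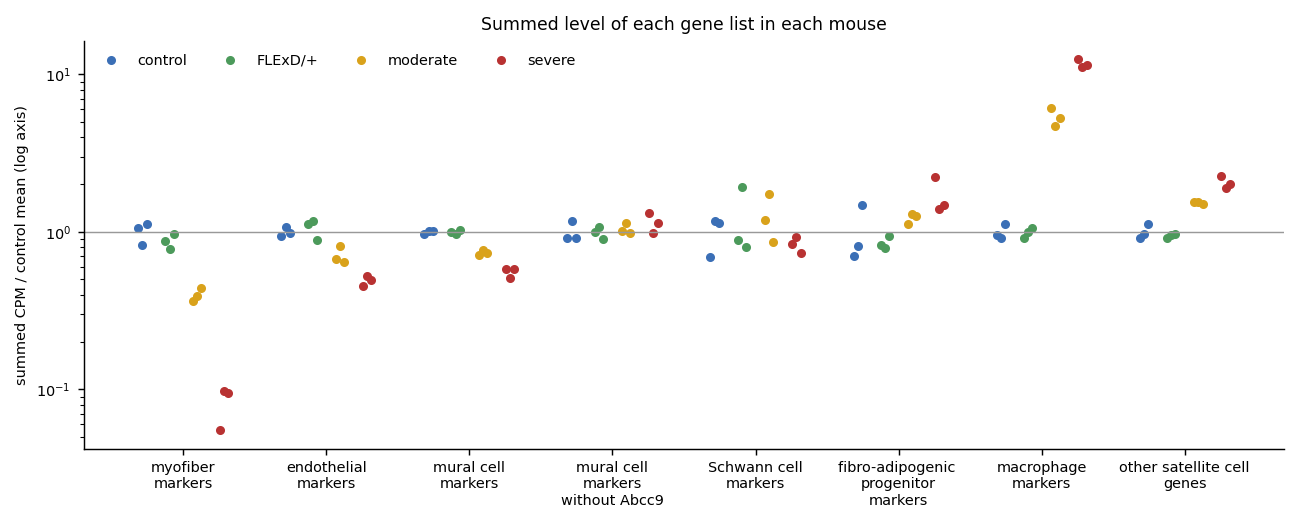
Summed CPM of each marker list in each mouse, divided by the mean of the control mice (vertical log axis), with points colored by group. Myofiber and endothelial markers are lowest in severe muscle, at 0.0824 and 0.492 times control on TMM-scaled libraries, mural cell markers are 0.555 times control with Abcc9 and 1.15 times without it, macrophage markers are 11.7 times control, and other satellite cell genes 2.07 times control. The last sum is weighted to its most abundant genes. Of these, Itgb1 went from 197 to 338 CPM and Col5a1, which fibroblasts also make, from 46.8 to 210 CPM, while Cd34 fell from 67.6 to 44.4 CPM.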

How the data were processed

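Poly(A) RNA of gastrocnemius muscle from 12 mice, 3 in each of 4 groups, was sequenced as single-end reads of 50 nt without strand information in the sources used here. The authors aligned reads to mm10 with RSEM 1.2.4 calling Bowtie, mapped the rest with TopHat2 2.0.8b, and deposited expected counts per gene, unnormalized, and TPM, without any TMM factor. RSEM divides reads that map to several genes, so 31.8% to 36.2% of values per library were not whole. They were rounded here.

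Counts were fitted in 1 edgeR 4.0.16 quasi-likelihood model of the 4 groups in R 4.3.3 (filterByExpr, TMM), with limma 3.58.1 and DESeq2 1.42.0 as alternatives, after a trial on simulated data. That trial changed a small set of genes in the moderate group only. It therefore did not check the scaling between libraries of unlike composition. Standard errors were derived from the F statistic. CPM were computed on TMM-scaled libraries. Ratios to Pax7 used counts plus 0.5 and exact permutation tests. Nothing in the labels shows separate cages or litters, so p-values measure the spread between these mice. GENCODE M21 (GRCm38) held 35982 of 37748 identifiers and gave positions and overlaps, and RefSeq gave promoters. The members and lists were chosen with earlier results of these data known. The text names the 10 members, up to 4 genes per list by mean CPM, a fixed set of pathway genes, and the 5 genes nearest Pax7 in profile. Alternatives were other scalings, filters and thresholds, TPM with a pseudocount of 1 or 0.1, 2-group fits and leaving out each mouse. From the satellite cell list 1 gene is not reported here, and the counts over the list were computed again without it. The DUX4-fl transgene and the mild model were not analysed here.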

Additional observations from a re-analysis of the deposited data

How the results depend on the processing

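The count of members called higher in the moderate model, 3, was 9 under library size alone, 6 under library size without the 20 most abundant genes, 5 on log2(TPM + 1) and 8 on log2(TPM + 0.1), settings that also raise the median of all genes. It was 3 without any 1 mouse, and members called lower were 0 to 1, the 1 being Hes1 without control mouse 1349. In the severe model 8 members were called higher, 10 under library size alone and on log2(TPM + 0.1), and 9 on log2(TPM + 1). The count was 7 to 8 without 1 mouse. The lower call of Hes1 is the least stable: 0 members were called lower under library size alone or without the 20 genes, on either TPM scale, with no filter on low counts, with at least 10 counts in every library or at a log2 fold change of at least 1, and 0 to 1 without 1 mouse. It was lost without control mouse 1127 or 1246 or any severe mouse. Its log2 fold change was 0.68 under library size alone, 0.55 on log2(TPM + 1) and 0.64 on log2(TPM + 0.1). Between the models 7 members were higher, 3 at a log2 fold change of at least 1, and 6 to 7 without 1 mouse. The ratio of Dll1 to Pax7 in the moderate model was 0.19 on TPM. The summed mural cell markers were 0.736 and 0.555 times control in the moderate and severe model, and 1.05 and 1.15 without Abcc9, left out after seeing the data. With at least 10 counts in every library Calcr was not tested. No paired analysis was possible because the groups share no replicate numbers. The cause of these changes was not tested. Depth limits Calcr most, at 5 to 16 counts in control libraries.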

Other observations

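The 5 genes outside the lists whose log2 CPM profile over the 12 mice lay nearest to that of Pax7, by root mean square distance among 13088 genes, were Cul7, Slc39a6, Adcy7, Pld3 and Fkbp10, at 0.173 to 0.201 log2 units. Cul7, a scaffold of a ubiquitin ligase, rose from 6.24 ± 1.06 CPM (SD, n = 3) in control to 16.7 ± 1.66 CPM in moderate and 36.2 ± 4.81 CPM in severe muscle. Fkbp10, a collagen chaperone, rose from 4.17 ± 0.562 to 11.5 ± 1.07 and 24.6 ± 3.48 CPM. Genes that averaged under 50 counts in severe libraries were not ranked, which leaves out Calcr. Of the 8 other members in it, Vcam1 ranked 20 at 0.228, Dll1 802, Heyl 1681 and Hes1, the farthest of these 8, 9688. The 12 mice share the same 4 groups, so nearness describes the levels only.

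Of 6 genes of myogenic commitment and cell division, 5 were called higher in moderate and 6 in severe muscle. Myog, which drives differentiation, rose by log2 3.04 (SE 0.20) and 4.65 (SE 0.20), and Mki67, a marker of dividing cells of any type, by 5.06 (SE 0.24) and 6.71 (SE 0.24). Myod1, the factor that marks activated satellite cells, was at log2 0.35 (SE 0.24) and not called in the moderate model, and rose by 2.35 (SE 0.23) in the severe.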
